A study of Homo sapiens with 4 samples.

Results

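The genes FHIT, WWOX, MACROD2, IMMP2L, NAALADL2, LSAMP, CTNNA3 and LRP1B are very long genes that lie at common fragile sites. They were taken by name, as 8 of the 19970 protein-coding genes on chromosomes 1 to 22 and X in GENCODE version 44, and all 8 were matched. RAD21 peaks were assigned to a gene when the summit, the base of highest enrichment, lay in the gene or within 50 kb of it. This gave 97 of the 56853 peaks in the list, and 0 peaks were shared between the genes.

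Chromatin bound by RAD21 was crosslinked, sheared, precipitated with the antibody ab992 and sequenced (ChIP-seq). All values come from 1 library, made from wild-type HCT116 cells, a human colon carcinoma line, that had received no treatment. The RAD21 ChIP libraries of HCT116_RAD21_AID cells, a clone with degron-tagged RAD21, without auxins and after 6 h in 500 μM of both IAA and α-NAA, and the Input library of the cells with auxins, were not analysed here. With 1 library there is no replicate and no statistical test, and the intervals given below cover counting error only.

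RAD21 closes the ring of cohesin, the complex that holds sister chromatids together and extrudes chromatin into loops. Cohesin accumulates where CTCF, a DNA-binding zinc finger protein, is bound to its motif, and it is also found at active promoters. Common fragile sites are regions that form gaps and breaks on metaphase chromosomes when replication is slowed, and they often coincide with very long genes that are poor in replication origins. FHIT and WWOX, a diadenosine polyphosphate hydrolase and a WW domain oxidoreductase, are the classical genes of this kind and are frequently deleted in tumours. MACROD2 removes ADP-ribose from proteins, IMMP2L is a subunit of a peptidase in the inner mitochondrial membrane, and NAALADL2 is related to glutamate carboxypeptidases. LSAMP is a membrane-anchored adhesion protein of the immunoglobulin family, CTNNA3 is an α-catenin of cell contacts, and LRP1B is a large receptor of the LDL receptor family.

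The sequences below show that the same match to the CTCF motif was found both with and without a peak in these genes. The 12-base core consensus of CTCF, which stands for 16 different sequences, was searched for on both strands, and 18 exact sites lay in the bodies of the 8 genes. Of these, 11 had a summit within 50 bp. The same 12 bases occurred in CTNNA3, IMMP2L and LSAMP, and are printed in capitals with 24 bases to either side on the GRCh38 assembly. The CTNNA3 site, on the minus strand at chr10:67306741-67306800, held the summit of a peak of 10.1-fold enrichment, 3 bp from the centre of the site. The IMMP2L site, on the plus strand at chr7:110839993-110840052, was 244 kb from the nearest summit. The LSAMP site, on the plus strand at chr3:116427750-116427809, was 89.7 kb from it. Each sequence is read on the strand of its motif, and the coordinates are those of all printed bases.
CTNNA3, with a peak: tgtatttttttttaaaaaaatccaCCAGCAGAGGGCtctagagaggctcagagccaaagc
IMMP2L, no peak: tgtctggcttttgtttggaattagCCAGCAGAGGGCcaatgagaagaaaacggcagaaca
LSAMP, no peak: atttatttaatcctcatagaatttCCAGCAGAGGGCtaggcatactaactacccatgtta

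Over chromosomes 1 to 22 and X, 690 of 1204 copies of these 12 bases had a summit within 50 bp, or 57.3%. A second core was shared by WWOX (minus strand, chr16:78770726-78770785), MACROD2 (plus strand, chr20:15378312-15378371) and FHIT (minus strand, chr3:60917435-60917494). It carried a peak of 10.3-fold in WWOX and of 3.93-fold in MACROD2, whereas the FHIT copy was 31.2 kb from the nearest summit. Of the 301 copies of this core on the same chromosomes, 162 had a summit within 50 bp, or 53.8%.
WWOX, with a peak: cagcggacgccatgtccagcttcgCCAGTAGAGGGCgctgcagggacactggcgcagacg
MACROD2, with a peak: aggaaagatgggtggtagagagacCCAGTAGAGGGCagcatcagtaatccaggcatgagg
FHIT, no peak: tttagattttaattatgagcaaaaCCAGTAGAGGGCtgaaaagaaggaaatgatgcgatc

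All 8 genes were poor in RAD21 peaks for their chromosomes. Together they held 0.756 peaks per 100 kb, counted over the gene and 50 kb on either side with assembly gaps left out, and the value ranged from 0.400 in IMMP2L to 1.04 in LSAMP. Chromosomes 1 to 22 and X held 1.94 peaks per 100 kb, and 8 of 8 genes were below this mean. So were 82.9% of the 322 protein-coding genes of at least 500 kb and 30.3% of all protein-coding genes, so the low density was shared by most genes of this length. Each gene was also below its own chromosome, at 21.7% (IMMP2L) to 65.0% (LSAMP) of the chromosome's density. How many other long genes were below their own chromosome was not counted. The windows of the 8 genes made up 0.441% of the chromosome bases and held 0.172% of the peaks.

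IMMP2L, NAALADL2 and FHIT had 0.400, 0.408 and 0.436 peaks per 100 kb, and these 3 genes held 17 of the 97 peaks. LRP1B followed with 0.70, WWOX with 0.907 and CTNNA3 with 0.923, and MACROD2 and LSAMP had 1.02 and 1.04. The counts behind the lowest values are small, with 4 peaks at IMMP2L, 6 at NAALADL2 and 7 at FHIT, so the order of these 3 genes cannot be told apart. With 100 kb on either side IMMP2L had 0.727 peaks per 100 kb, and at a q-value of 1e-05 LRP1B had 0.45, so the place of these genes in the order depends on the window and the threshold. The density was likewise close in WWOX (11 peaks), CTNNA3 (18), MACROD2 (22) and LSAMP (15).

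**Figure D1:**
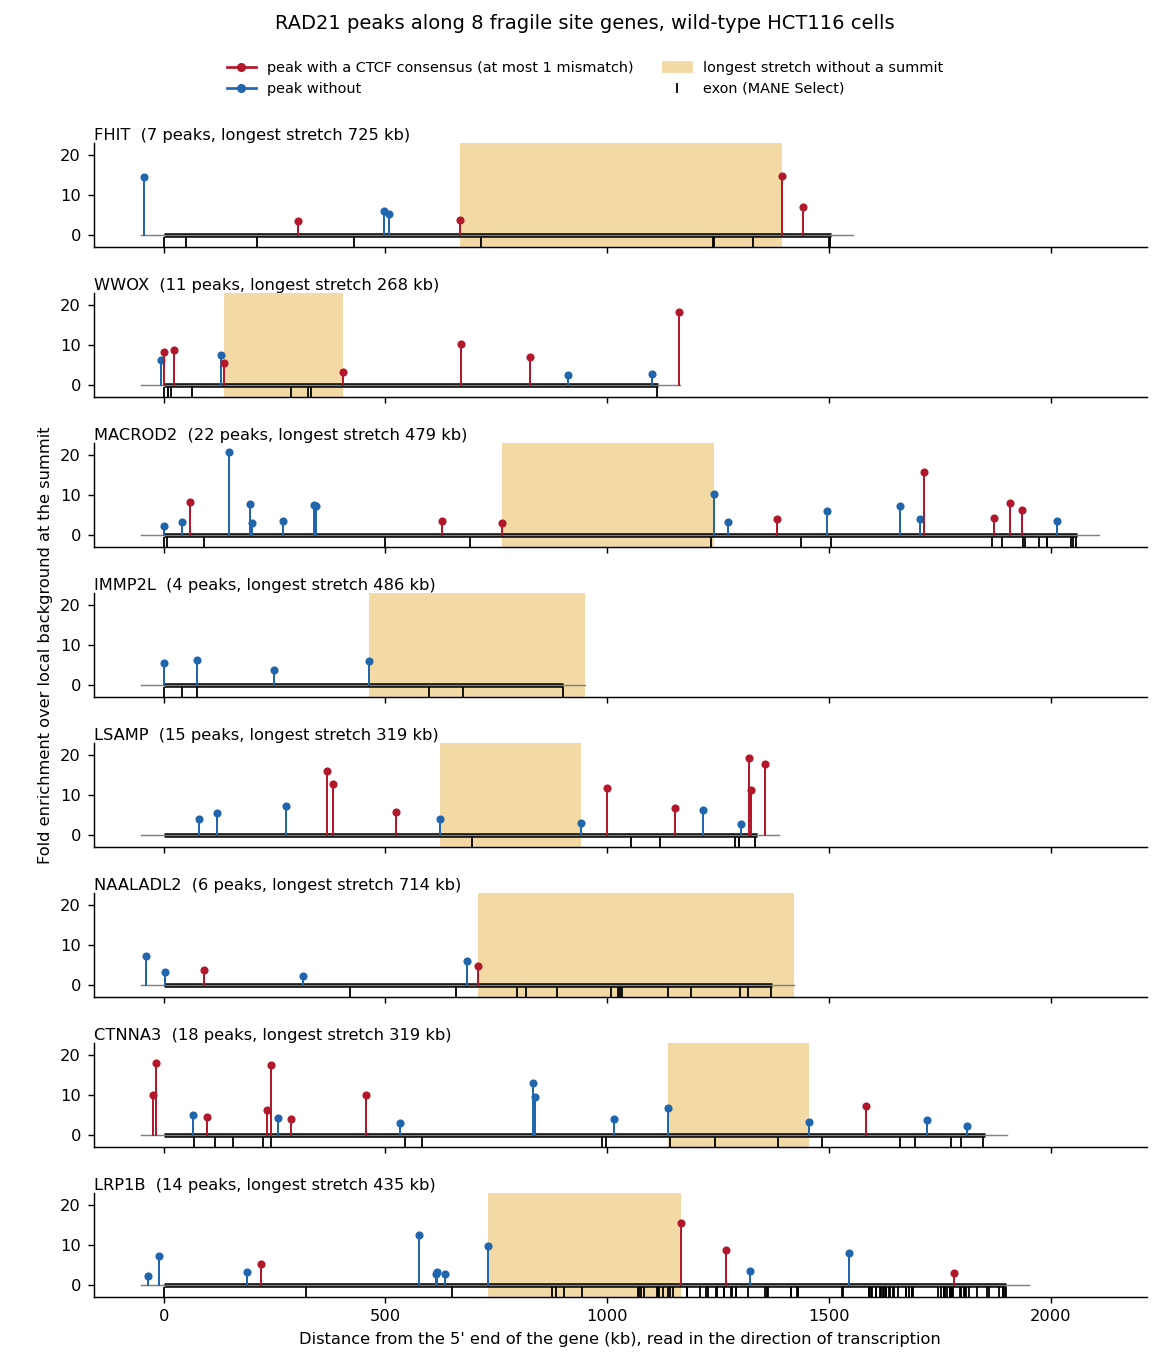
RAD21 peaks along the 8 genes, each gene read in the direction of transcription, with the distance from its 5′ end in kb on the x axis and the fold enrichment at the summit on the y axis. Red marks peaks with a CTCF consensus of at most 1 mismatch within 50 bp of the summit, blue marks peaks without one, ticks are exons of the MANE Select transcript, and the shaded longest stretch without a summit takes up nearly the same share of FHIT, IMMP2L and NAALADL2 (48.2 to 48.5% of the gene).

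The longest stretch without a summit, measured inside the gene and 50 kb to either side, ran from 268 kb in WWOX to 725 kb in FHIT, with a median of 457 kb. At a q-value of 1e-05 the WWOX stretch was 535 kb, and CTNNA3 then had the shortest, of 375 kb. In FHIT, IMMP2L and NAALADL2 it covered 48.2%, 48.5% and 48.4% of the gene, and in the other 5 genes 17.3% to 24.1%. The longest stretches together covered 30.3% of the 12.03 Mb of gene sequence. As a share of the gene and its 50 kb flanks, the median stretch was 22.2% in the 8 genes. It was 31.8% in all 322 genes of at least 500 kb and 30.1% in the 64 other genes of at least 1 Mb. The list holds no coverage between peaks, so a stretch without a peak cannot be told apart from bases that are missing from this line or that gave no aligned reads, and copy number was not measured here.

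FHIT (ENSG00000189283.11) is a gene of 1504 kb on the minus strand, at chr3:59747277-61251459. Read from the 5′ side, its 7 peaks had fold enrichments of 14.5, 3.59, 6.09, 5.11, 3.73, 14.8 and 6.96. The peak of 14.5-fold lay upstream, 43.5 kb from the MANE Select start, the start of the transcript chosen as the reference for the gene. Fold enrichment is the ratio of ChIP fragments at the summit to the local background, and the 14.8-fold peak rested on 101 fragments (95% Poisson interval of the fold 12.1 to 17.9). The gene was empty of summits from the 3.73-fold peak in intron 4 to the 14.8-fold peak in intron 8, at chr3:59857915-60582454. This stretch holds exons 5 to 8 and the whole of intron 5, which is 522.7 kb long and is the largest of the gene. Apart from the sites within 50 bp of the summits at its ends, it holds 0 exact CTCF consensus sites and 23 with 1 mismatch.

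The ends of the FHIT stretch are shown because both carry a CTCF match, printed in capitals on the plus strand with 50 bases to each side of the summit. The low-coordinate end, chr3:59857865-59857965, has an exact consensus on the minus strand. The high-coordinate end, chr3:60582404-60582504, has a consensus with 1 mismatch on the plus strand.
FHIT, low end: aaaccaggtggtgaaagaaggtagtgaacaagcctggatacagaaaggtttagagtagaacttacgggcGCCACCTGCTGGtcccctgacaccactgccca
FHIT, high end: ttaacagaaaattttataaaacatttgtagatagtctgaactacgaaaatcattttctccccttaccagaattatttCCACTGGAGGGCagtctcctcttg

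WWOX (ENSG00000186153.19) spans 1113 kb of the plus strand at chr16:78099400-79212667. Its 11 peaks included 1 of 8.26-fold at the start of the gene, 445 bp from the MANE Select start (fold interval 6.28 to 10.7). All 3 exact consensus sites in WWOX had a peak, of 8.76-, 3.33- and 10.3-fold. The longest stretch, chr16:78235361-78503683, holds exons 6 to 8. WWOX also has the largest intron of the 8 genes, intron 8 of 778.9 kb, and in contrast to intron 5 of FHIT it held 5 peaks. The highest peak, of 18.4-fold, lay past the 3′ end of the gene, near the limit of the 50 kb window.

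MACROD2 (ENSG00000172264.19), the longest of the genes with 2058 kb on the plus strand at chr20:13995369-16053197, had 22 peaks, all within the gene body. Of these, 10 lay in the first of 3 equal parts of the gene, 3 in the middle part and 9 in the last. The stretch of 479 kb, chr20:14757961-15236949, holds exon 6 and most of intron 5, which is 545.0 kb long and held 1 peak. A 20.7-fold peak in intron 3 was the highest at any of the 8 genes (142 fragments, interval 17.5 to 24.4). No CTCF consensus was found within 50 bp of it even with 1 mismatch, and its sequence at chr20:14142235-14142335, plus strand, is shown for that reason.
MACROD2, highest peak: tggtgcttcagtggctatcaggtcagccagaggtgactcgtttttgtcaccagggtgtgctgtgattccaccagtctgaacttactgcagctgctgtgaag

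The peak at the MACROD2 start was weak. It had a fold of 2.28 with 20 fragments (interval 1.44 to 3.46), lay 801 bp from the MANE Select start, and was lost when the q-value threshold was lowered from 0.05 to 0.01. Its summit was also 126 bp from an annotated start of SEL1L2, which is read from the opposite strand, so the gene it belongs to cannot be told apart. Within intron 3, on the opposite strand to MACROD2, lies FLRT3, a leucine-rich repeat transmembrane protein. Its MANE Select start was 154 bp from the summit of a 7.21-fold peak, and a 7.45-fold peak lay inside FLRT3.

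IMMP2L (ENSG00000184903.10) is 900 kb long on the minus strand, at chr7:110662644-111562517. It had 4 peaks of 5.60-, 6.30-, 3.62- and 6.05-fold from the 5′ side, and none of the 4 had a CTCF consensus with up to 1 mismatch within 50 bp. The first lay in exon 1, 467 bp from the MANE Select start (interval of the fold 4.14 to 7.40). The other 3 lay in intron 3, the largest with 523.7 kb. From the last of them to the edge of the window no summit was found over 486 kb, which includes exons 4 to 6, and the next summit outside made the stretch 503 kb. LRRN3, another leucine-rich repeat protein gene, lies in intron 3 on the opposite strand, and the 6.05-fold peak lay in it, 7.70 kb from its start.

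NAALADL2 (ENSG00000177694.16), 1372 kb on the plus strand at chr3:174438573-175810548, had 6 peaks of 7.35-, 3.33-, 3.77-, 2.22-, 5.88- and 4.78-fold. The first lay upstream and the 3.33-fold peak lay 282 bp from an annotated start near the 5′ end of the gene. The MANE Select start was 107 kb from the nearest summit. From the 4.78-fold peak in intron 2, no summit was found over 714 kb, up to the edge of the window, and the next one lay 795 kb away. This stretch, chr3:175146465-175860548, holds 12 of the 14 exons of the MANE Select transcript. The peak that opens it has an exact consensus, as does the peak of 15.5-fold in intron 18 of LRP1B. Both have the same 12 bases, printed here on the strand of the motif (minus strand, chr3:175146416-175146475 and chr2:140964514-140964573).
NAALADL2, 4.78-fold: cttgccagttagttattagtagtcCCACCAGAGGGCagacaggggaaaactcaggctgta
LRP1B, 15.5-fold: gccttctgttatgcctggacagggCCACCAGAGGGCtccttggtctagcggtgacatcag

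The intervals of these 2 peaks, 3.32 to 6.69 and 12.7 to 18.7, did not overlap, but they cover counting error only. LRP1B (ENSG00000168702.18), 1900 kb on the minus strand at chr2:140231423-142131016, had 14 peaks. Its stretch of 435 kb, chr2:140964520-141399460, runs from intron 3 to intron 18 and holds 15 of the 91 exons, and the peaks at its ends were of 9.85- and 15.5-fold. None of the 5 annotated start sites of LRP1B had a summit within 1 kb, and the nearest to the MANE Select start was 9515 bp upstream. The upstream peak of 2.16-fold, the lowest of the 97, lay over a local background of 3.05 times the lowest background in the list.

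LSAMP (ENSG00000185565.13), 1337 kb on the minus strand at chr3:115802374-117139389, was the gene with the most strong peaks, with 6 of its 15 at 10-fold or more. They had folds of 16.1, 12.8, 11.8, 19.4, 11.3 and 17.9, and the last 3 lay within 50 kb of each other around the 3′ end of the gene. All 6 had a consensus with 1 mismatch, while both exact consensus sites of LSAMP lay in its longest stretch and had no peak. Of the 15 peaks, 7 lay before the MANE Select start, in the part of the gene used by longer transcripts. That start lies inside the stretch of 319 kb, chr3:116198698-116517502, 72.0 kb from the nearest summit. None of the 6 annotated start sites had a summit within 1 kb.

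CTNNA3 (ENSG00000183230.18), 1851 kb on the minus strand at chr10:65912457-67763637, had 18 peaks. The highest were an 18.0-fold peak 16.4 kb upstream of the gene and a 17.7-fold peak in intron 5. The MANE Select start was 1.65 kb from a peak of 5.05-fold, and a peak of 4.49-fold lay 978 bp from another annotated start. The stretch of 319 kb, chr10:66308054-66627390, holds exons 10 to 12. When stretches were followed to the next summits outside the window, the longest was a different one of 397 kb that runs out of the window. LRRTM3, a leucine-rich repeat protein of synapses, lies in intron 7 on the opposite strand, and its start was 20 bp from the summit of a 9.49-fold peak. A 13.0-fold peak lay inside LRRTM3. A second protein-coding gene of the annotation, ENSG00000289325, starts 292 bp from the same 9.49-fold summit.

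A summit within 1 kb of an annotated start site was found in 5 of the 8 genes, WWOX, MACROD2, IMMP2L, NAALADL2 and CTNNA3. The share was 44.0% over all protein-coding genes and 44.1% over those of at least 500 kb. When only the MANE Select start was used, the genes were WWOX, MACROD2 and IMMP2L. The share over other genes was not counted for this start. The MACROD2 peak is the weak one that was lost at a q-value of 0.01. FHIT, LSAMP and LRP1B had no such peak at any of their 6, 6 and 5 start sites. The nested genes FLRT3 and LRRTM3 had a peak within 1 kb of their own start, and LRRN3 did not.

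**Figure D2:**
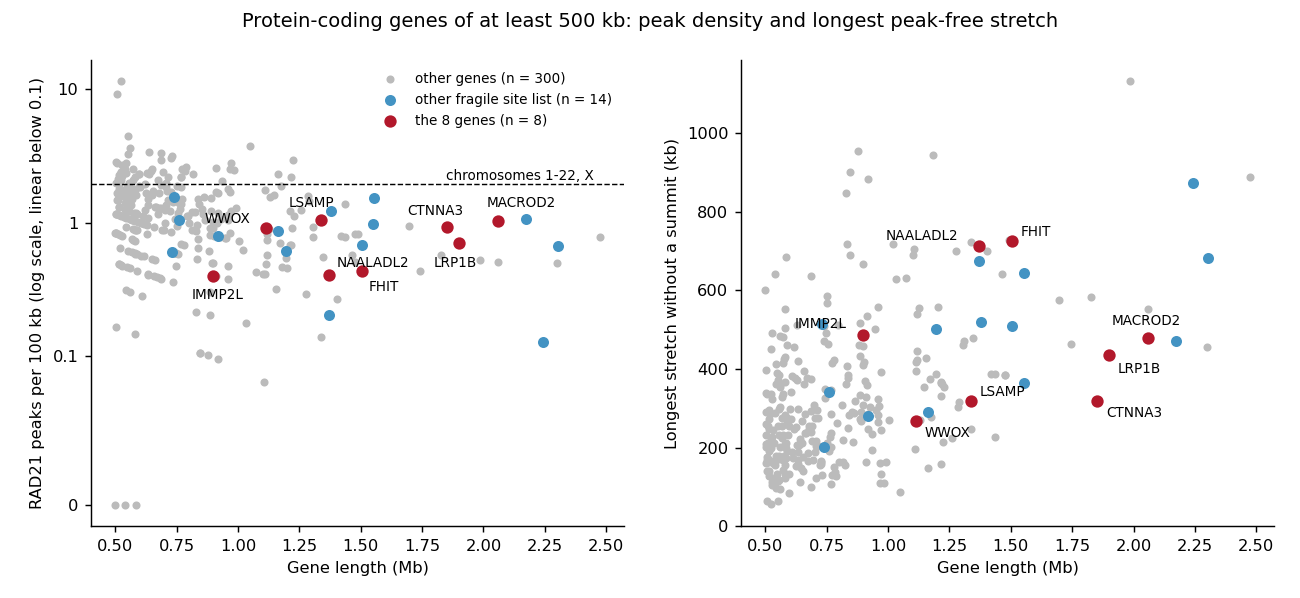
Peak density (left, peaks per 100 kb on a log scale that is linear below 0.1) and longest stretch without a summit (right, kb) against gene length in Mb for the 322 protein-coding genes of at least 500 kb, with the 8 genes in red, 14 other fragile site genes in blue and the 300 remaining genes in grey. The 8 genes lie below the dashed mean of the chromosomes, as do most genes of their length.

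Among the 322 genes of at least 500 kb, the 8 genes took ranks 31 (IMMP2L), 32 (NAALADL2), 40 (FHIT), 89 (LRP1B), 130 (WWOX), 134 (CTNNA3), 151 (MACROD2) and 158 (LSAMP) by density, from the lowest up. By length of the longest stretch, FHIT took rank 10 and NAALADL2 rank 14 from the longest. IMMP2L followed at 54, MACROD2 at 57, LRP1B at 72, CTNNA3 at 136, LSAMP at 137 and WWOX at 178. The median density of the 8 genes, 0.803 peaks per 100 kb, was below the 1.06 of all 322, and their median stretch of 457 kb was longer than 285 kb. The 8 genes are also longer, at a median of 1.44 Mb. The 64 other genes of at least 1 Mb had a median density of 0.731 and a median stretch of 451 kb. Their pooled density, 0.870, was above the 0.756 of the 8 genes, so the medians and the pooled values differ in opposite directions. The values of the 8 genes include IMMP2L, which is shorter than 1 Mb. Among the other 7 members, the middle density was 0.907 (WWOX). Their middle stretch was 435 kb (LRP1B), which is shorter than 451 kb. When only the 71 genes of at least 1 Mb were ranked, IMMP2L, the sparsest member, was too short to be included. For the other 7 members, the median share of genes with a lower density was 40.1% among the 322 genes and 63.4% among the 71, and in the latter it ranged from 11.3% to 74.6%.

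A comparison list of 14 other long genes reported at fragile sites had a median density of 0.829 and a median stretch of 506 kb. In that list DMD (0.128) and IL1RAPL1 (0.204) were lowest, both on the X chromosome, and PDE4D (1.51) and RORA (1.55) were highest. Among the remaining genes, AFF2, TAFA1 and LUZP2 had 0 peaks, so no member was the sparsest long gene of the genome. SORCS2 (4.46), GSE1 (9.07) and RBFOX3 (11.4) were the densest. The GC content of the 8 genes had a median of 36.7%, against 38.2% for all 322 and 45.3% for all protein-coding genes. It was highest in WWOX (42.6%) and lowest in LRP1B (34.8%). The medians of GC content and peak density rose together from the 8 genes to the comparison list (37.2%), all 322 and all protein-coding genes. Against the 8 genes, the 64 other genes of at least 1 Mb went the other way. Their median GC content, 37.1%, was above that of the 8 genes, and their median density, 0.731, was below that of the 8. IMMP2L is shorter than 1 Mb, and among the other 7 members the middle GC content was 37.2% (LSAMP). The order of the GC medians therefore depends on IMMP2L. The part of GC content in the densities was not tested.

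**Figure D3:**
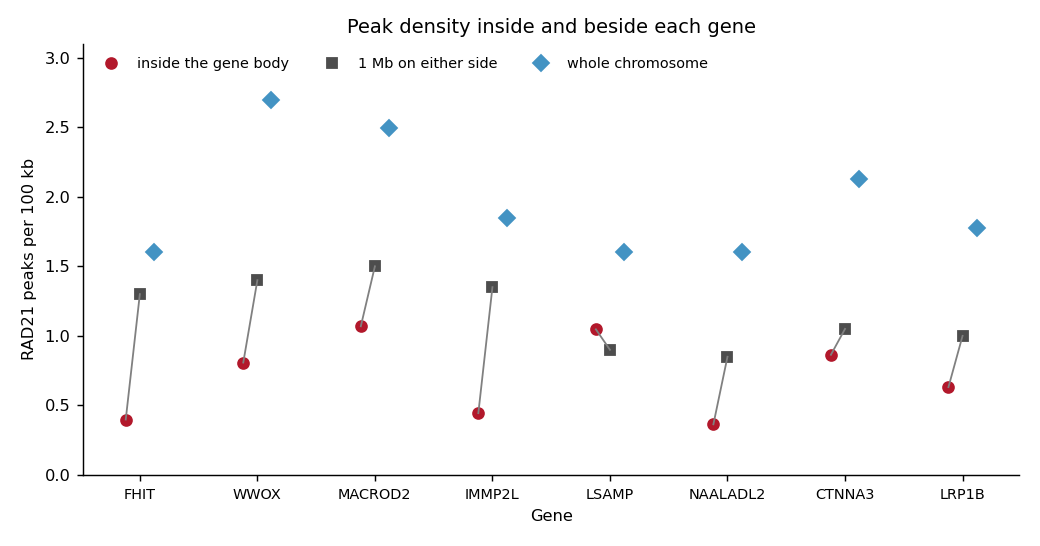
RAD21 peaks per 100 kb inside each gene body (circles), in 1 Mb on either side of it (squares) and over its whole chromosome (diamonds). The circle lies below the square in 7 of the 8 genes, and above it in LSAMP.

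Peaks were sparser inside the genes than beside them in 7 of 8 genes, as in 78.0% of the genes of at least 500 kb. The gap was largest in IMMP2L, with 0.445 peaks per 100 kb inside and 1.35 in the 1 Mb on either side, and in FHIT, with 0.399 and 1.30. WWOX had 0.808 and 1.40, MACROD2 had 1.07 and 1.5, and NAALADL2 had 0.364 and 0.85. LRP1B (0.632 and 1.00) and CTNNA3 (0.864 and 1.05) differed less. LSAMP was the exception, with 1.05 inside (14 peaks) and 0.90 beside it (18 peaks). These counts are small and the values close, so this order is uncertain. For all 8 genes the value beside the gene was also below that of the chromosome. The share of other long genes with this trait was not counted. Their surroundings were also poor in peaks, with a median of 1.5 beside all 322 genes and 1.175 beside the 8. Chromosomes 1 to 22 and X held 1.94.

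Added up over the genes, the middle held the fewest peaks, but this was not so in every gene. Of the 88 peaks inside the bodies, 40 (45.5%) lay in the first of 3 equal parts. The middle held 19 (21.6%) and the last 29 (33.0%). A summit in an exon of the gene was found for 3 of the 88 peaks. The share over other genes was not counted, so this number cannot be called high or low. MACROD2 weighed most in the low count of the middle, with 10, 3 and 9 peaks in the 3 parts. WWOX (4, 2 and 3), LSAMP (5, 2 and 7) and LRP1B (5, 3 and 4) also had the fewest in the middle. FHIT had 2 in each part, CTNNA3 had 8, 4 and 4, and in IMMP2L (3, 1 and 0) and NAALADL2 (3, 2 and 0) the last part was empty. The other genes of at least 500 kb had 33.6%, 28.6% and 37.9% in these parts. The 50 kb upstream of the 8 genes held 7 peaks, or 1.75 per 100 kb, and the 50 kb downstream held 2, or 0.500 per 100 kb. For the other long genes these values were 1.83 and 1.92. The downstream count rests on WWOX and LSAMP, with 1 peak each.

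**Figure D4:**
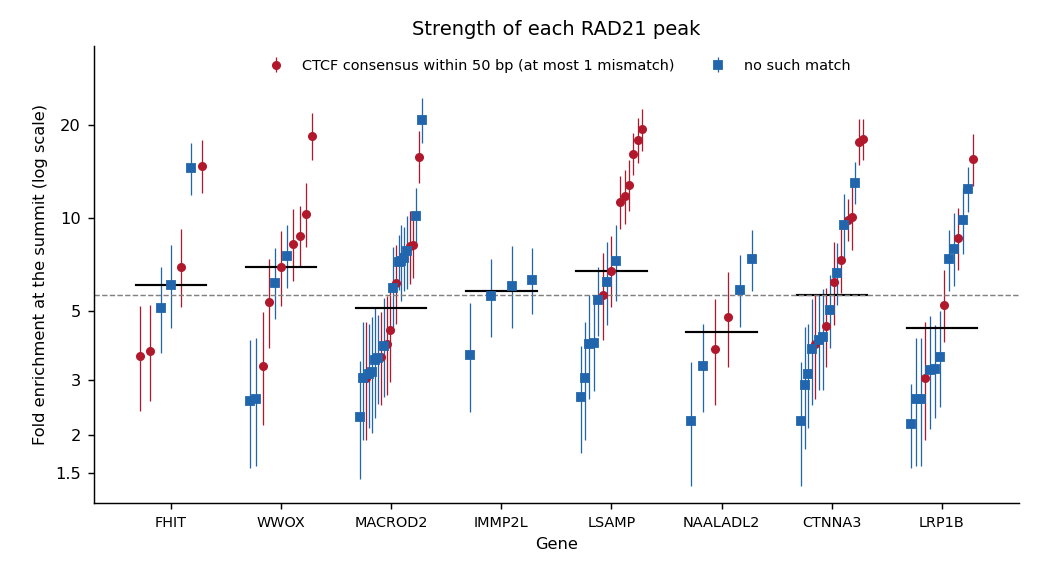
Fold enrichment at the summit of each of the 97 peaks by gene, on a log scale, with 95% Poisson intervals for counting error as bars, the median of each gene as a black line and the median of all peaks as a dashed line. Red circles are peaks with a CTCF consensus of at most 1 mismatch and blue squares are peaks without one, and IMMP2L and NAALADL2 have no peak of 10-fold or more.

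The peaks that were present were of ordinary median strength. Their median fold enrichment was 5.94, with a range from 2.16 to 20.7, against 5.63 over all peaks and 5.98 at all genes of at least 500 kb. The upper quartile was lower, at 8.26 against 10.8 over all peaks and 10.3 at all genes of at least 500 kb. A fold of at least 10 was reached by 19 of 97 peaks, or 19.6% (95% Wilson interval 12.9 to 28.6%). The share was 27.4% of all peaks and 26.1% at all genes of at least 500 kb, both inside this interval. The 19 strong peaks were unevenly spread over the genes, with 6 at LSAMP, 4 at CTNNA3 and 3 at MACROD2. FHIT, WWOX and LRP1B had 2 each, and IMMP2L and NAALADL2 had none. The median number of fragments at the summit was 46, so a single peak is known only roughly. The median width was 393 bp, against 446 bp for all peaks.

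CTCF matches were about as frequent at these peaks as elsewhere. An exact consensus lay within 50 bp of the summit at 11 of 97 peaks, or 11.3% (interval 6.45 to 19.2%), and at 11.5% of all peaks. With 1 mismatch allowed, it was 41 of 97, or 42.3% (interval 32.9 to 52.2%), and 38.7% of all peaks. Of the exact sites, 11 of 18, or 61.1% (interval 38.6 to 79.7%), had a summit, against 52.9% in all genes of at least 500 kb. The genes differed from each other, from 3 of 3 in WWOX and 3 of 4 in MACROD2 to 0 of 2 in LSAMP and 0 of 1 in IMMP2L, and these counts are too small to rank them. Stronger peaks had a match more often, with 14 of 19 (73.7%) at 10-fold or more and 27 of 78 (34.6%) below it. Over all peaks of the chromosomes these counts were 9622 of 15410 and 12187 of 40926. The exceptions were 5 strong peaks without a match. At FHIT it was the upstream peak, and at MACROD2 the highest and the one that ends its stretch. The others were the CTNNA3 peak in LRRTM3 and the 12.4-fold LRP1B peak in intron 2. Sites with more than 1 mismatch were not searched for, so these peaks cannot be said to lack a CTCF site.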

How the data were processed

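RAD21 ChIP-seq of wild-type HCT116 cells was analysed from 1 peak list. The authors trimmed reads with Trimmomatic 0.39, aligned them to GRCh38 with Bowtie2 2.5.3, removed duplicates with Picard and called peaks on this library with MACS2 2.2.9.1 against Input, at a q-value of 0.05. Which Input served as control is not given in the sources used here. The deposited columns were a score (not used), the fold enrichment ratio over the local background with 1 added to both, and the −log10 of the p-value and q-value. The number of ChIP fragments under a summit was worked out from its deposited fold and p-value, and was whole within 0.05 for all but 14 peaks. It ranged from 17 to 172 at the 97 peaks, and the depth of the library was not used. The method and the motif search were tested on simulated data. Genes came from GENCODE version 44 and sequences from GRCh38, with scipy 1.17.1, numba 0.67.0, pandas 2.3.3 and numpy 2.4.6 in Python 3.11.15. Intervals are 95% Wilson or exact Poisson. The members and gene lists were chosen with earlier results of these data known. Named peaks were the highest, those at the ends of the longest stretch, the one nearest the MANE Select start and those within 1 kb of a start site. Others that the text singles out were chosen after their values were seen. Protein-coding genes with a start inside a member were named, as were the extremes of both comparison lists. Alternatives were stricter q-values, folds or backgrounds, other windows and bounds, 1 mismatch, and other length limits.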

Additional observations from a re-analysis of the deposited data

How the results depend on the processing

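Of 54 alternatives to the summary values, 50 left the value within its error or within 1.5 times its count, and 4 did not. For medians over the 8 genes, this error was the whole range from the lowest to the highest gene. Staying within it therefore says little about stability. A fold of at least 2, or any overlap of the peak interval, left the same 97 peaks and could not move the density. With 1 mismatch allowed, 42.3% of the peaks had a CTCF consensus and 10.6% of the sites (41 of 388) had a peak, because more sequences then count as sites. With the MANE Select start only, 3 genes had a peak at the start. Among genes of at least 1 Mb, the median share of genes with a lower density was 63.4%, where IMMP2L is not included as it is shorter. The density over the 8 genes ranged from 0.623 peaks per 100 kb at a q-value of 1e-05 to 0.799 with 100 kb on either side. The median longest stretch ranged from 436 kb in the gene body to 511 kb at a q-value of 1e-05. Of 144 alternatives for single genes, 140 stayed within 1.5 times the value given. The exceptions were LRP1B at 0.45 and WWOX with a stretch of 535 kb at a q-value of 1e-05, IMMP2L at 0.727 with 100 kb on either side, and NAALADL2 at 0.190 over its MANE Select transcript. Following the stretch to the next summit outside the window was added after seeing the data. GC content without repeats was not run, as the reference used does not mark repeats. No paired analysis was possible because 1 library was analysed and no result came from a test. The depth limits what is called a peak, and weaker binding within a stretch would not be listed.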

Other observations

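Pairs of neighbouring summits less than 10 kb apart were found 9 times at the 8 genes. They lay at WWOX (2 pairs), MACROD2 (3), LSAMP (1), CTNNA3 (2) and LRP1B (1). FHIT, IMMP2L and NAALADL2 had none, but they also had the fewest peaks (7, 4 and 6). The share of such pairs over all peaks was not counted. The closest pair lay 1.58 kb apart in intron 2 of LRP1B, with folds of 3.24 and 2.61. The pair of LSAMP, 5.01 kb apart near its 3′ end, had folds of 11.3 and 19.4. In CTNNA3, the peaks at the start of LRRTM3 and inside it lay 5.52 kb apart.

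A summit lay within 1 kb of the start of another annotated gene at 8 of the 97 peaks. The share over all peaks was not counted, so this number cannot be called high or low. Besides those at SEL1L2, FLRT3 and LRRTM3, a 7.97-fold peak in intron 43 of LRP1B lay 82 bp from the start of the microRNA gene MIR7157. The shares of copies of 1 exact CTCF core that had a summit ranged over the cores found in the 8 genes from 35.5% (329 of 927), for a core in LSAMP without a peak, to 82.1% (501 of 610), for a core in WWOX with a peak of 8.76-fold.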
